A study of Triticum dicoccoides with 12 samples.

Results

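The comparison described here asks whether 2 wild emmer wheat genotypes, Y12-3 and A24-39, differ in how their root transcripts respond to water stress. The response of a genotype is its stressed mean minus its well-watered mean, and the interaction is the Y12-3 response minus the A24-39 response. All 12 arrays of the series enter it, in 4 groups of 3 biological replicates: Y12-3 stressed, Y12-3 well-watered, A24-39 stressed and A24-39 well-watered. It was computed for each of 61179 of the 61290 probe sets of the Affymetrix wheat genome array, leaving out the 111 controls whose names begin with AFFX. The probe sets past the threshold were then sorted by which of the 4 group means stood apart from the other 3.

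Both genotypes belong to Triticum turgidum subsp. dicoccoides, the wild tetraploid relative of durum wheat, and published work describes Y12-3 as resistant to drought and A24-39 as susceptible. Roots were taken from greenhouse plants of 4 weeks, per the labels. The stress lasted 7 days and began when plants had 4 leaves, and control plants were kept well watered. Whether 1 plant or several went into an array is not stated. Each genotype is 1 accession, so a difference between them is a difference between these accessions.

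Roots that lose water adjust osmotically, slow or redirect growth and change transcription through abscisic acid dependent and independent pathways, and much of this response is shared among genotypes of a species. An interaction picks out the transcripts whose response is not shared. It can arise in several ways: a transcript may appear under stress in 1 genotype, may be lost under stress in 1 genotype, or may respond in both to a different extent. Sorting by which group stands apart describes the signal, and each such class is called a form below. It does not separate these ways, since a form can hold responses called in 1 genotype and in both.

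The deposited values are log-like numbers with array means near 0. With natural logarithms and no later scaling, 1 unit would stand for a ratio of 2.72, and with log2 for a ratio of 2. Neither is stated. The level that a probe set gives without a target was read from 23 controls without a wheat target, the brightest of which had a mean of -0.152 over the arrays. This value is called the background level below. A group mean at or under it is only a bound. An interaction that rests on such means is a difference in signal, and neither its size nor its direction in transcript level is then settled. All 4 group means were above the background level in 5 of the 52 probe sets described below, both stressed means were under it in 29 and both well-watered means in 14. Rises and falls are likewise those of the signal. The array was designed from bread wheat transcripts, and the effect of sequence differences between these genotypes and the probes was not tested.

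2 arrays stood apart from the others of their group, and each was the third replicate of a well-watered group. The root mean square deviation from the group mean was 0.122 for the third well-watered Y12-3 array and 0.129 for the third well-watered A24-39 array, against 0.064 to 0.0945 for the other 10. On the third well-watered Y12-3 array 47.8% of probe sets lay above the brightest non-target control of the same array, against 35.4% and 39.4% on the other 2 arrays of that group. On the third well-watered A24-39 array the share was 33.0%, against 35.8% and 37.7%. For dap, an added control transcript with probe sets near both ends, the 3′ end read above the 5′ end by 0.847 ± 0.0412 in Y12-3 under stress, 1.25 ± 0.197 in Y12-3 with water, 0.949 ± 0.061 in A24-39 under stress and 1.15 ± 0.131 in A24-39 with water (± SD of 3 arrays). Its own interaction was -0.196, and within well-watered Y12-3 the third array had 1.02 while the other 2 had 1.36. The part of these quantities in the interaction was not tested.

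The interaction test, made with limma in 1 fit over all 12 arrays, called 52 probe sets at an adjusted p under 0.05, which is 0.085% of those tested. The Y12-3 response was above the A24-39 response for 33 of them (0.0539%) and below it for 19 (0.0311%). The count rested on the arrays named above. Leaving out the third well-watered Y12-3 array gave 625, with 524 higher and 101 lower. Leaving out the third well-watered A24-39 array gave 141, with 100 higher and 41 lower, and leaving out both gave 1765, with 1399 higher and 366 lower. All of the 52 were called again without the third well-watered Y12-3 array and without both, and 48 were called without the third well-watered A24-39 array. Leaving out 1 of the remaining arrays kept only 22 to 35 of the 52. Same-numbered arrays of the 2 genotypes deviated together within each watering regime, and a fit with the replicate block set separately for stressed and well-watered roots called 154 (90 higher, 64 lower), 36 of them among the 52. After rescaling by spike-in controls it called 117, with 92 higher and 25 lower. An unadjusted p under 0.05 was found for 5095 probe sets (8.33%), with 2773 higher (4.53%) and 2322 lower (3.8%).

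The 52 interactions ranged in size from 0.287 to 3.626 units with a median of 0.734, against a median of 0.058 over all tested probe sets. In 16 of them the size was at least 1 unit. Over all tested probe sets 118 interactions reached 1 unit, and the 102 not called had a median standard error of 0.363, against 0.147 in the 16 called.

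**Figure D1:**
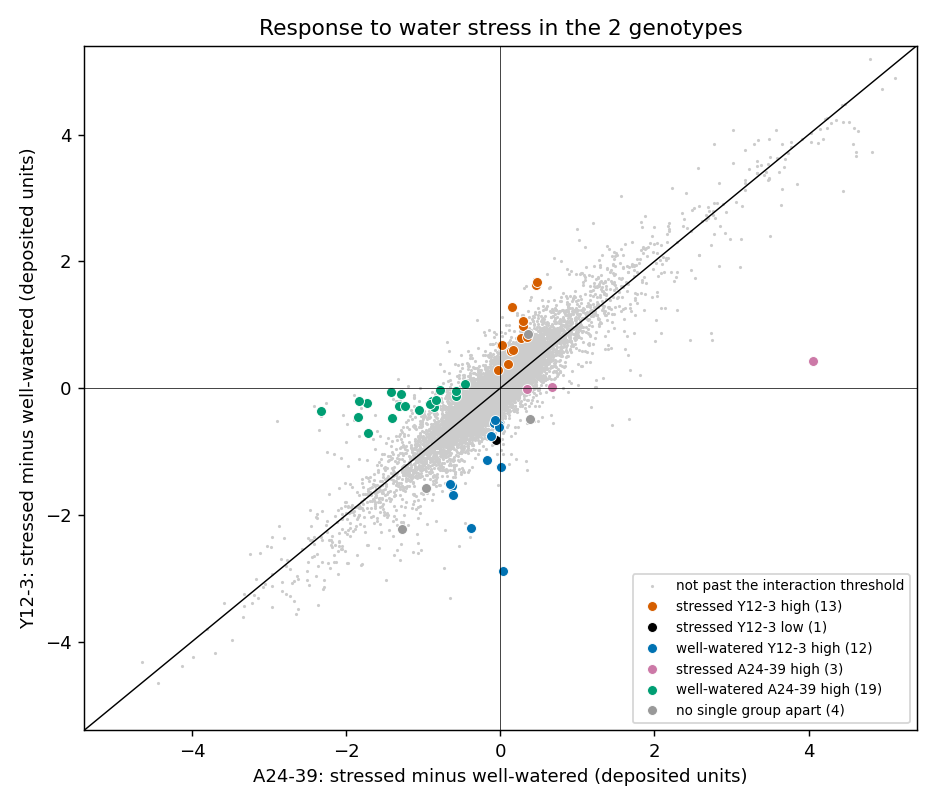
Response to water stress in A24-39 (x axis) and in Y12-3 (y axis), each as stressed minus well-watered in deposited units, with 1 grey point for each of the tested probe sets and coloured points for the 52 past the interaction threshold by the group that stood apart. Called probe sets lie off the diagonal of equal response, on both sides of it.

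Apart from 1 probe set that went in opposite directions, the 52 changed under stress in one genotype or moved the same way in both with unequal size. In the companion tests from the same fit, 16 fell in both genotypes and 9 rose in both. Another 8 fell and 5 rose in Y12-3 with no call in A24-39, while 10 fell and 3 rose in A24-39 with no call in Y12-3. The remaining 1 fell in Y12-3 and rose in A24-39. Over all tested probe sets limma called 11.1% as higher and 8.09% as lower under stress in Y12-3, and 5.34% as higher and 5.35% as lower in A24-39. These shares are not firm: the 11716 calls in Y12-3 became 6921 with replicate blocks set per watering regime and 7731 without the third stressed Y12-3 array, and the 6541 in A24-39 became 3866 without the third stressed A24-39 array. A missing call in 1 genotype does not show that it had no response. In RNA from whole roots, fewer cells of a type and less RNA per cell cannot be told apart.

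A group was said to stand apart when the gap between its mean and the nearest other mean was larger than the range of the other 3 means, which is possible for at most 1 group. This held for 48 of the 52 called probe sets (92.3%), against 45.2% of all tested. Well-watered A24-39 stood apart in 19, stressed Y12-3 in 14, well-watered Y12-3 in 12 and stressed A24-39 in 3. The group that stood apart was the high one in 47 of these 48, while over all tested probe sets a high group was found in 27.4% and a low group in 17.9%. In all 48 its 3 arrays did not overlap any of the other 9, which was so for 11.7% of all tested probe sets. A large interaction makes a group apart likelier, so these shares describe the called probe sets and are not evidence of their own. The order of the forms was not stable. Stressed Y12-3 high outnumbered well-watered A24-39 high by 29 to 23 with replicate blocks set per watering regime, by 50 to 28 after spike-in rescaling, by 431 to 49 with array weights, by 45 to 26 with a trended robust prior and by 38 to 25 at an adjusted p under 0.1. Well-watered A24-39 high led by 12 to 11 with a replicate block over all groups and by 17 to 7 after quantile normalization. It also led by 18 to 11 after median centring and by 20 to 15 without dim probe sets. Without the second well-watered Y12-3 array, well-watered Y12-3 high was the largest form (14 of 31). At an unadjusted p under 0.05 stressed Y12-3 high held 24.3% of probe sets, against 4.2% for well-watered A24-39 high.

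**Figure D2:**
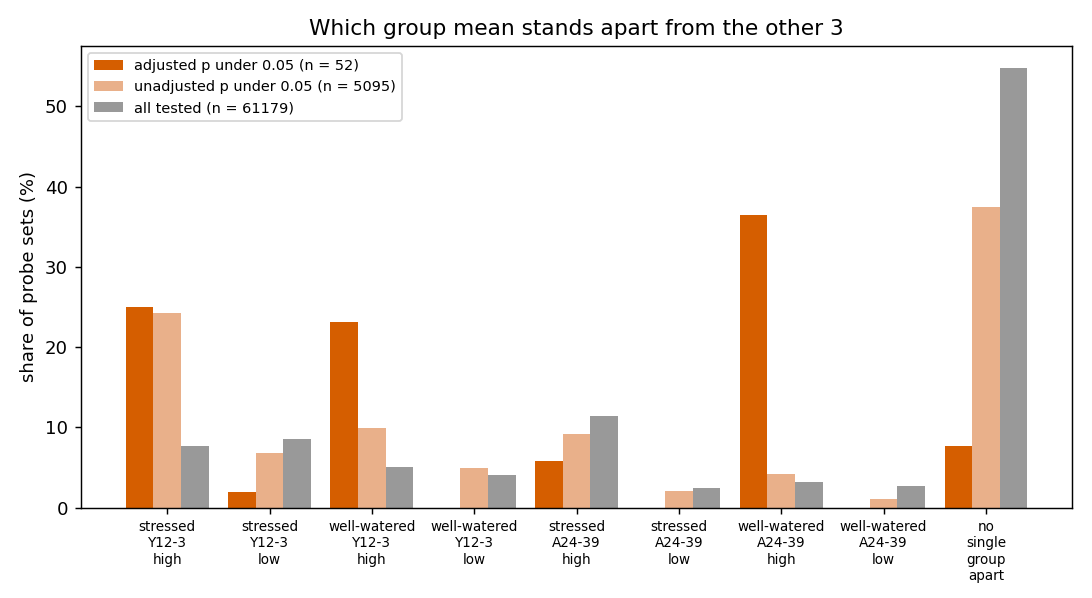
Share of probe sets (%, y axis) by the group mean that stood apart and its direction (x axis), for the 52 past the adjusted threshold, the 5095 with an unadjusted p under 0.05 and all 61179 tested. Well-watered A24-39 high takes 36.5% of the 52 against 3.23% of all tested, and stressed Y12-3 high takes 25% against 7.69%.

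In 29 of the 52 a single group mean lay above the background level, and in each of these it was the group that stood apart. Another 15 had 2 groups above it, 3 had 3 and 5 had all 4. Over all tested probe sets 3.85% had a single group above the background level and 55% had none. A single mean above this level is likely to stand apart in a called probe set. These counts thus describe the 52 and are not evidence of their own.

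**Figure D3:**
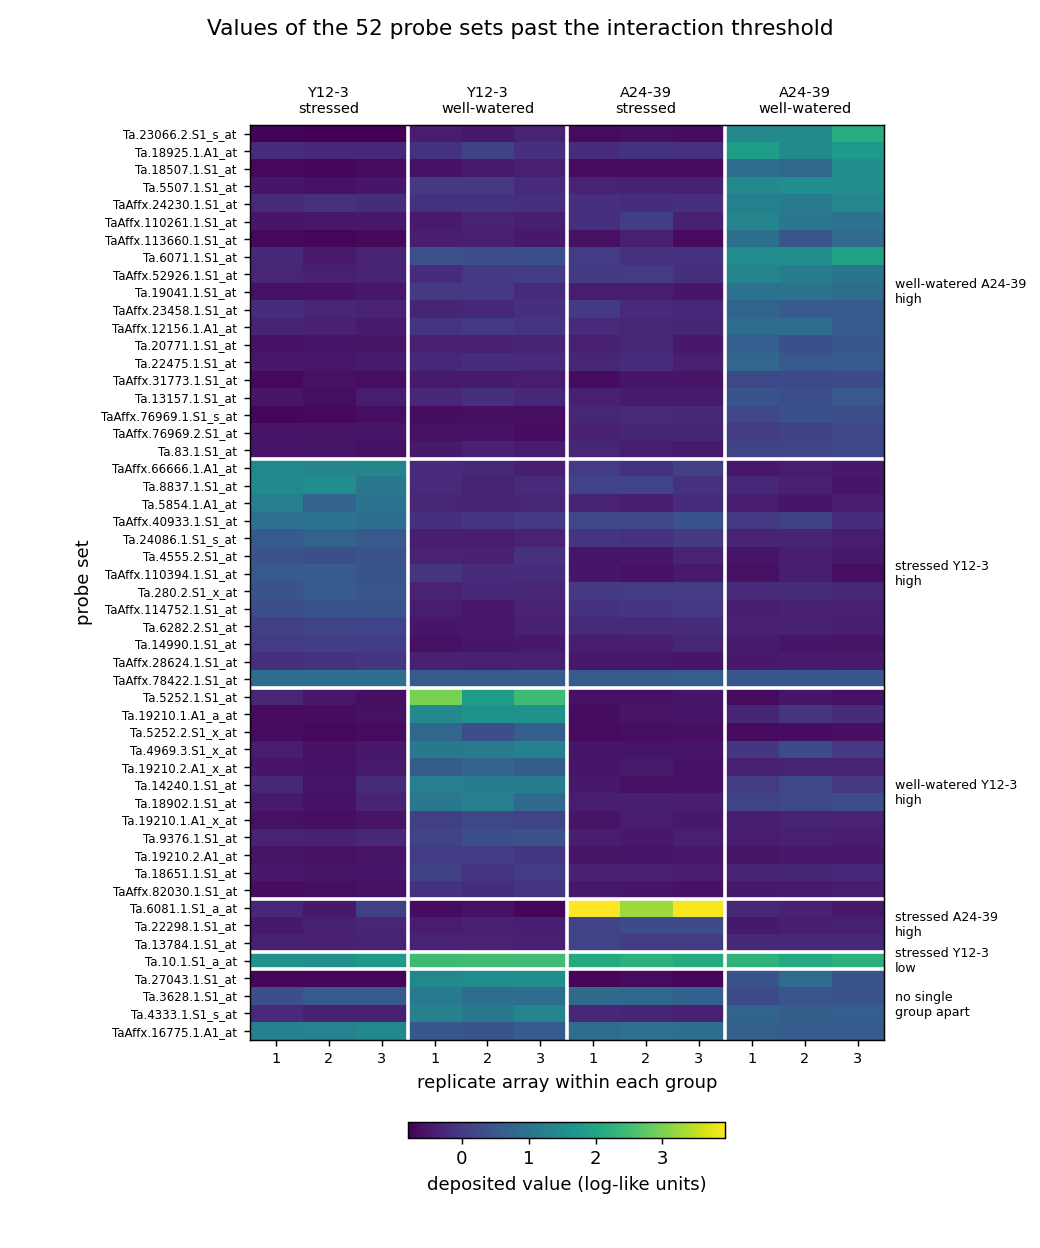
Deposited value (colour, log-like units) of the 52 called probe sets (y axis) on each of the 12 arrays (x axis), with the groups separated by white vertical lines and the sets of probe sets with the same group apart separated by horizontal ones. In the 47 probe sets at the top 1 block of 3 arrays is brighter than the other 9.

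In 19 probe sets the form was a signal in well-watered A24-39 that was lower in the other 3 groups. All 19 fell under stress in A24-39, with differences of -2.322 to -0.454 units. In Y12-3 9 of them also fell, 4 of these with both Y12-3 means under the background level, and the differences of all 19 ran from -0.710 to 0.059. In well-watered roots all 19 were lower in Y12-3 than in A24-39, where limma called 5.28% of all tested probe sets and 2.48% in this direction. In stressed roots 2 were, where it called 8.47% and 3.39%. The sorting itself favours these patterns. In 11 of the 19 well-watered A24-39 was the single group above the background level.

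Ta.23066.2.S1_s_at had the largest interaction of this form. It had -0.76, -0.79 and -0.80 in Y12-3 under stress, -0.43, -0.48 and -0.33 in Y12-3 with water, -0.66, -0.61 and -0.64 in A24-39 under stress and 1.44, 1.46 and 2.15 in A24-39 with water. All 9 values outside well-watered A24-39 were under the background level, so the A24-39 difference of -2.322 ± 0.149 units (SE) understates the fall, and a fall in Y12-3 was out of reach. The interaction was 1.953 ± 0.211 (SE; limma adjusted p = 0.00934).

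The third well-watered A24-39 array was the highest of its group for this probe set, and without it and its Y12-3 counterpart the interaction was 1.761 ± 0.042 (SE). The other 2 probe sets with the same cluster number differed from it. They had interactions of -0.515 and -0.171, neither past the threshold, with called differences of -3.023 and -2.400 in Y12-3 and of -2.508 and -2.229 in A24-39. A probe set ending in s_at holds probes shared by several transcripts of the array's design.

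Ta.18925.1.A1_at had -0.18, -0.28 and -0.28 on the stressed Y12-3 arrays, -0.10, 0.11 and -0.14 on the well-watered Y12-3 arrays, -0.19, -0.11 and -0.12 on the stressed A24-39 arrays and 1.86, 1.46 and 1.75 on the well-watered A24-39 arrays. Its 3 well-watered A24-39 values lay more than 1 unit above all others, and the other 9 lay between -0.28 and 0.11, around the background level. The interaction was 1.636 ± 0.133 (SE; limma adjusted p = 0.00144), made up of differences of -0.198 ± 0.094 in Y12-3, not past the threshold, and of -1.834 ± 0.094 in A24-39.

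Ta.5507.1.S1_at was one of 3 probe sets with the smallest adjusted p of the whole comparison. Its values were -0.52, -0.57 and -0.52 in Y12-3 under stress, -0.01, -0.01 and -0.21 in Y12-3 with water, -0.33, -0.36 and -0.36 in A24-39 under stress and 1.43, 1.53 and 1.53 in A24-39 with water. It fell in both genotypes, with differences of -0.460 ± 0.054 in Y12-3 and -1.844 ± 0.054 in A24-39 (SE), and the interaction was 1.384 ± 0.077 (SE; limma adjusted p = 7.71e-05). Both stressed means were under the background level, so both falls are understated.

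Ta.18507.1.S1_at had -0.70, -0.73 and -0.66 on the stressed Y12-3 arrays, -0.56, -0.46 and -0.38 on the well-watered Y12-3 arrays, -0.65, -0.66 and -0.67 on the stressed A24-39 arrays and 0.90, 0.79 and 1.52 on the well-watered A24-39 arrays. As for Ta.23066.2.S1_s_at, the third well-watered A24-39 array was the highest. The interaction of 1.498 ± 0.208 (SE; limma adjusted p = 0.0386) was 1.315 ± 0.061 when the third well-watered array of each genotype was left out, and its call was lost in 10 of the 22 alternative settings in which it was refitted. Among these settings, the looser threshold of an adjusted p under 0.1 keeps every call by construction. The other 3 probe sets of its cluster number had interactions of the same sign, from 0.542 to 2.132, with none past the threshold. The largest of these, Ta.18507.1.S1_s_at, had 1.41, 1.40 and 2.69 in well-watered A24-39 and no value above -0.27 elsewhere.

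LOC543146, read by Ta.20771.1.S1_at, was the single member of this form with a symbol, and that symbol carries no description. It had -0.56, -0.54 and -0.55 in Y12-3 under stress, -0.36, -0.36 and -0.32 in Y12-3 with water, -0.39, -0.29 and -0.48 in A24-39 under stress and 0.61, 0.36 and 0.51 in A24-39 with water. Its 3 well-watered A24-39 values did not overlap the other 9, all of which were under the background level. The interaction was 0.678 ± 0.085 (SE; limma adjusted p = 0.0253), with a limma adjusted p of 0.0562 under a replicate block over all groups and of 0.0336 under blocks set per watering regime. The signal fell by 0.881 ± 0.060 in A24-39 (SE). The Y12-3 difference of -0.203 ± 0.060 (SE) lies wholly under the background level, so a fall of the transcript there could not be read.

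The 14 further probe sets of this form had interactions of 0.454 to 1.363 units, the highest that of TaAffx.24230.1.S1_at. Both probe sets of the cluster TaAffx.76969 were among them, with interactions of 0.520 and 0.514. Their stressed Y12-3 means were -0.678 and -0.535, and their well-watered Y12-3 means were -0.626 and -0.595. In A24-39 they averaged -0.273 and -0.328 with stress and 0.299 and 0.126 without. They may read the same transcript, so they are not independent.

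**Figure D4:**
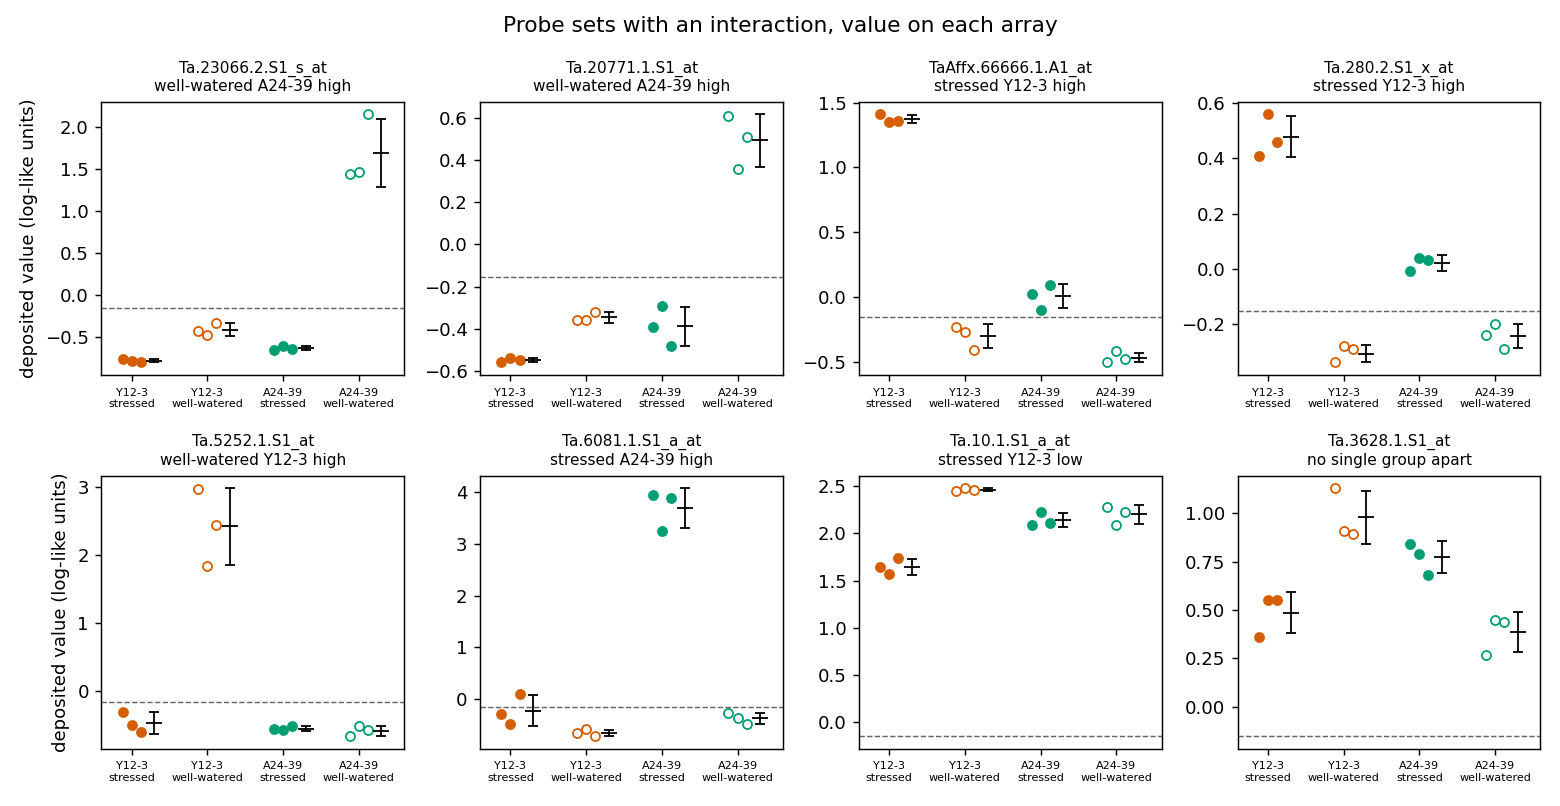
Deposited value (y axis, log-like units) of 8 called probe sets on each array (circles, filled for stressed and open for well-watered) in the 4 groups (x axis), with the mean ± SD of 3 arrays in black and the background level of -0.152 as a dashed line. Each panel but the last has 1 group clear of the other 3, high in 6 and low in Ta.10.1.S1_a_at, and in Ta.3628.1.S1_at the stressed group is the lower one in Y12-3 and the higher one in A24-39.

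The second form was a stronger rise of the signal under stress in Y12-3, in 13 probe sets. All 13 rose in Y12-3, by 0.281 to 1.676 units, and 8 of them also rose in A24-39, 1 of these with both A24-39 means under the background level. There the differences of the 13 ran from -0.032 to 0.472. In stressed roots all 13 were higher in Y12-3 than in A24-39 (5.07% of all tested), and in well-watered roots 1 was (2.80% of all tested). As before, the sorting itself favours these patterns. Stressed Y12-3 was the single group above the background level in 6 of the 13. All 4 group means were above that level in 2 of the 13. In the others both well-watered means were under it, so which genotype's transcript rose more is not settled.

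TaAffx.66666.1.A1_at had 1.41, 1.35 and 1.36 on the stressed Y12-3 arrays, -0.23, -0.27 and -0.41 on the well-watered Y12-3 arrays, 0.02, -0.10 and 0.09 on the stressed A24-39 arrays and -0.50, -0.42 and -0.48 on the well-watered A24-39 arrays. The 4 groups thus had stressed Y12-3 at the top, stressed A24-39 next and both well-watered groups under the background level. It rose in Y12-3 by 1.676 ± 0.055 and in A24-39 by 0.472 ± 0.055 (SE), and the interaction was 1.204 ± 0.078 (SE; limma adjusted p = 0.000203). The call held in all 22 alternative settings in which the named probe sets were refitted, with values of 1.140 to 1.304. Among them, the looser threshold could not lose a call.

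Ta.8837.1.S1_at had 1.47, 1.52 and 1.11 in Y12-3 under stress, -0.24, -0.34 and -0.22 in Y12-3 with water, 0.15, 0.16 and -0.11 in A24-39 under stress and -0.28, -0.38 and -0.51 in A24-39 with water. It repeated the order of TaAffx.66666.1.A1_at, with rises of 1.634 ± 0.109 in Y12-3 and 0.461 ± 0.109 in A24-39 (SE). The interaction was 1.173 ± 0.155 (SE; limma adjusted p = 0.0300), and the call was lost in 10 of the 22 settings.

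Ta.5854.1.A1_at differed from these in that a rise was called in Y12-3 and not in A24-39. Its values were 1.24, 0.69 and 1.01 on the stressed Y12-3 arrays, -0.30, -0.32 and -0.29 on the well-watered Y12-3 arrays, -0.34, -0.40 and -0.20 on the stressed A24-39 arrays and -0.44, -0.51 and -0.43 on the well-watered A24-39 arrays. Both A24-39 groups stayed under the background level, and the A24-39 difference of 0.146 ± 0.109 (SE) was not past the threshold. The interaction was 1.141 ± 0.155 (SE; limma adjusted p = 0.0337), a call lost in 9 of the 22 settings. The other probe set of its cluster number had an interaction of 0.439, not past the threshold, with differences of 0.435 in Y12-3 and -0.004 in A24-39.

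TaAffx.40933.1.S1_at was one of 2 probe sets of this form with all 4 group means above the background level. Its well-watered means, -0.077 in Y12-3 and -0.026 in A24-39, were close to that level, with 1 array of each group under it. It had 0.98, 1.01 and 0.94 in Y12-3 under stress, -0.17, -0.08 and 0.01 in Y12-3 with water, 0.20, 0.20 and 0.39 in A24-39 under stress and 0.00, 0.11 and -0.19 in A24-39 with water. Its rise was 1.051 ± 0.077 in Y12-3 and 0.289 ± 0.077 in A24-39 (SE). The interaction of 0.763 ± 0.109 (SE; limma adjusted p = 0.0425) was not past the threshold with replicate blocks set per watering regime (limma adjusted p = 0.073). Its call was lost in 13 of the 22 settings.

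LOC100037642, a symbol without description, was read by Ta.280.2.S1_x_at. It had 0.41, 0.56 and 0.46 on the stressed Y12-3 arrays, -0.34, -0.28 and -0.29 on the well-watered Y12-3 arrays, -0.01, 0.04 and 0.03 on the stressed A24-39 arrays and -0.24, -0.20 and -0.29 on the well-watered A24-39 arrays. Stressed Y12-3 lay above stressed A24-39 without overlap, and the well-watered groups overlapped under the background level. Its rise was 0.787 ± 0.041 in Y12-3 and 0.264 ± 0.041 in A24-39 (SE), which gave an interaction of 0.523 ± 0.058 (SE; limma adjusted p = 0.0101). Ta.280.1.S1_s_at, which has the same cluster number and the symbol LOC542879, rose by 1.445 in Y12-3 and 0.783 in A24-39, and its interaction of 0.662 was not past the threshold. The second probe set of LOC100037642 lay under the background level in all groups.

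Beside the settings given above, the share of this form moved with the arrays that were left out, and not only with the 2 deviating ones. Stressed Y12-3 was the high group apart in 13 of the 52 probe sets, in 389 of the 625 called without the third well-watered Y12-3 array (62.2%) and in 776 of the 1765 called without both (44.0%). In 9 of the 13 the third array was the highest of the 3 well-watered Y12-3 arrays, and in 1 it was the lowest. Without the third well-watered A24-39 array the form made up 32 of 141 calls (22.7%), the same number as well-watered A24-39 high. Leaving out any other single array gave shares from 9.38% to 38.2%. The lowest came without the second well-watered A24-39 array (6 of 64). The highest came without the second stressed Y12-3 array (13 of 34).

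**Figure D5:**
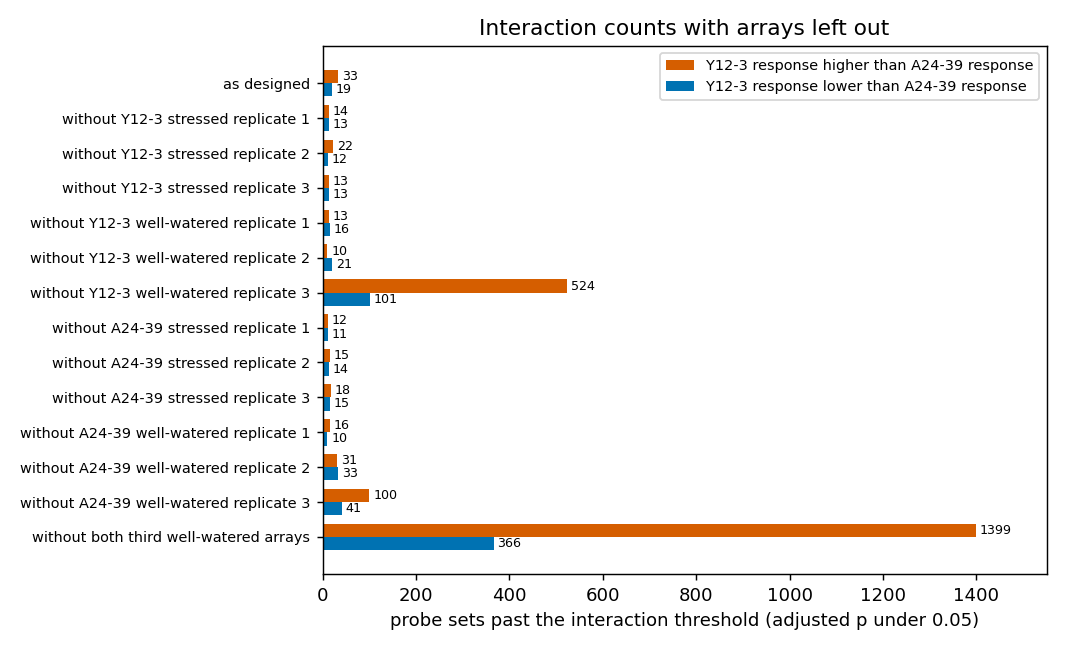
Number of probe sets past the interaction threshold (x axis) with all arrays and with single arrays or the third well-watered arrays of both genotypes left out (y axis), split by direction. The counts of 625, 141 and 1765 come from the 3 fits without the third well-watered array of Y12-3, of A24-39 and of both, and the other 10 single arrays give 23 to 64.

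The third form, in 12 probe sets, was a signal in well-watered Y12-3 that was lower in the other 3 groups. All 12 fell under stress in Y12-3, with differences of -2.892 to -0.505 units, and 5 of them also fell in A24-39, 2 of these with both A24-39 means under the background level. There the differences ran from -0.652 to 0.030. In well-watered roots all 12 were higher in Y12-3 than in A24-39 (2.80% of all tested). In stressed roots limma called 0 of the 12 in either direction, with the smallest adjusted p at 0.144. Both patterns are again favoured by the sorting itself. In 9 of the 12 well-watered Y12-3 was the single group above the background level.

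Ta.5252.1.S1_at had -0.30, -0.50 and -0.60 in Y12-3 under stress, 2.98, 1.85 and 2.45 in Y12-3 with water, -0.56, -0.57 and -0.51 in A24-39 under stress and -0.66, -0.51 and -0.57 in A24-39 with water. The 3 well-watered Y12-3 arrays differed among themselves by over 1 unit but did not approach the other 9, all under the background level. The Y12-3 difference of -2.892 ± 0.213 units (SE) is thus understated, and the interaction was -2.922 ± 0.302 (SE; limma adjusted p = 0.00719).

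A second probe set of this cluster, Ta.5252.2.S1_x_at, had -0.66, -0.69 and -0.67 on the stressed Y12-3 arrays, 0.77, 0.32 and 0.63 on the well-watered Y12-3 arrays, -0.66, -0.62 and -0.61 on the stressed A24-39 arrays and -0.66, -0.64 and -0.61 on the well-watered A24-39 arrays. Its interaction was -1.251 ± 0.124 (SE; limma adjusted p = 0.0055), and the well-watered Y12-3 arrays kept the order they had in Ta.5252.1.S1_at. All 6 probe sets of the cluster had an interaction of this sign, the 4 not called running from -1.494 to -0.210. Ta.5252.2.S1_s_at, with -1.494, had all 4 group means above the background level, a difference of -1.527 in Y12-3 and one of -0.033 in A24-39. Its means in stressed Y12-3 (-0.060), stressed A24-39 (-0.086) and well-watered A24-39 (-0.052) were close to that level.

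Ta.19210.1.A1_a_at had -0.66, -0.64 and -0.59 in Y12-3 under stress, 1.43, 1.64 and 1.63 in Y12-3 with water, -0.64, -0.55 and -0.53 in A24-39 under stress and -0.31, -0.06 and -0.20 in A24-39 with water. The signal fell by 2.201 ± 0.070 in Y12-3 (SE). The A24-39 difference of -0.379 ± 0.070 (SE) lies between means under the background level, so a fall of the transcript there could not be read. The interaction was -1.822 ± 0.099 (SE; limma adjusted p = 7.71e-05). Of the 5 probe sets of this cluster 4 were called, with interactions of -1.822, -0.964, -0.623 and -0.563, and the fifth lay under the background level in all groups. All 4 were called in each of the 12 fits that left out 1 array.

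Ta.4969.3.S1_x_at had -0.44, -0.58 and -0.47 on the stressed Y12-3 arrays, 1.11, 1.18 and 1.28 on the well-watered Y12-3 arrays, -0.54 on all 3 stressed A24-39 arrays and -0.04, 0.28 and -0.01 on the well-watered A24-39 arrays. Well-watered A24-39 was second here and lay above the background level. The called differences were -1.684 ± 0.077 in Y12-3 and -0.618 ± 0.077 in A24-39 (SE), both to means under the background level, and the interaction was -1.066 ± 0.109 (SE; limma adjusted p = 0.00711). Another probe set of the cluster, Ta.4969.1.S1_x_at, differed by -3.175 in Y12-3 and -2.306 in A24-39, with an interaction of -0.869 that was not past the threshold.

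The fourth form, a rise under stress called in A24-39 and not in Y12-3, had 3 probe sets, and it held the largest interaction of all. Ta.6081.1.S1_a_at had -0.28, -0.48 and 0.10 on the stressed Y12-3 arrays, -0.65, -0.58 and -0.71 on the well-watered Y12-3 arrays, 3.94, 3.24 and 3.88 on the stressed A24-39 arrays and -0.27, -0.36 and -0.47 on the well-watered A24-39 arrays. Stressed A24-39 was over 3 units above every other array. In stressed Y12-3 the third array lay above the background level and the other 2 under it. The rise in A24-39 was 4.051 ± 0.181 (SE) from a mean under the background level. The Y12-3 difference of 0.425 ± 0.181 (SE) was not past the threshold, and the interaction was -3.626 ± 0.256 (SE; limma adjusted p = 0.000432). It has no symbol in the array annotation, and no other probe set has its cluster number.

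Ta.22298.1.S1_at had -0.48, -0.39 and -0.30 in Y12-3 under stress, -0.43, -0.37 and -0.41 in Y12-3 with water, 0.17, 0.29 and 0.31 in A24-39 under stress and -0.47, -0.40 and -0.38 in A24-39 with water. The other 3 groups overlapped under the background level, and the interaction was -0.650 ± 0.074 (SE; limma adjusted p = 0.0127).

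Ta.13784.1.S1_at was the smallest of the form. It had -0.39, -0.36 and -0.33 on the stressed Y12-3 arrays, -0.32, -0.34 and -0.39 on the well-watered Y12-3 arrays, 0.15, 0.05 and 0.03 on the stressed A24-39 arrays and -0.27, -0.27 and -0.28 on the well-watered A24-39 arrays, an interaction of -0.358 ± 0.052 (SE; limma adjusted p = 0.0425). Its call was lost in 15 of the 22 alternative settings, among them the replicate block set per watering regime (limma adjusted p = 0.0949).

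A single probe set had a group that stood apart on the low side. Ta.10.1.S1_a_at had 1.64, 1.57 and 1.74 in Y12-3 under stress, 2.45, 2.48 and 2.46 in Y12-3 with water, 2.09, 2.23 and 2.11 in A24-39 under stress and 2.28, 2.09 and 2.23 in A24-39 with water. All 12 values were well above the background level, and stressed Y12-3 lay under all other arrays. It fell by 0.817 ± 0.058 in Y12-3, while the A24-39 difference of -0.058 ± 0.058 (SE) was not past the threshold, and the interaction was -0.759 ± 0.082 (SE; limma adjusted p = 0.00934). The other 2 probe sets of the cluster, both with all groups above the background level, had interactions of -0.670 and -0.753 with limma adjusted p of 0.0731 and 0.0706.

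The last 4 of the 52 had no single group apart. Ta.3628.1.S1_at was the one probe set that moved in opposite directions. It had 0.36, 0.55 and 0.55 on the stressed Y12-3 arrays, 1.13, 0.91 and 0.89 on the well-watered Y12-3 arrays, 0.84, 0.79 and 0.68 on the stressed A24-39 arrays and 0.27, 0.45 and 0.44 on the well-watered A24-39 arrays. Within each genotype the watering regimes did not overlap, and all values were above the background level. It fell by 0.492 ± 0.081 in Y12-3 and rose by 0.385 ± 0.081 in A24-39 (SE), and the interaction was -0.877 ± 0.115 (SE; limma adjusted p = 0.0300). With replicate blocks set per watering regime the call was lost (limma adjusted p = 0.0722). The other 4 probe sets of its cluster number had interactions of the same sign, from -1.004 to -0.143, none past the threshold, and 3 of these 4 differed by -0.457 to -0.516 in Y12-3 and by 0.432 to 0.546 in A24-39.

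Ta.27043.1.S1_at and Ta.4333.1.S1_s_at fell in both genotypes to means under the background level, from a higher well-watered level in Y12-3. Ta.27043.1.S1_at had -0.71, -0.74 and -0.73 in Y12-3 under stress, 1.42, 1.5 and 1.56 in Y12-3 with water, -0.72, -0.66 and -0.71 in A24-39 under stress and 0.44, 0.87 and 0.43 in A24-39 with water, which gives an interaction of -0.944 ± 0.136 (SE; limma adjusted p = 0.0425). Ta.4333.1.S1_s_at had -0.24, -0.37 and -0.36 on the stressed Y12-3 arrays, 1.26, 1.12 and 1.35 on the well-watered Y12-3 arrays, -0.26, -0.31 and -0.37 on the stressed A24-39 arrays and 0.72, 0.60 and 0.62 on the well-watered A24-39 arrays, which gives an interaction of -0.608 ± 0.087 (SE; limma adjusted p = 0.0418). In these 2 probe sets both stressed groups were under the background level, so which genotype lost more of the transcript could not be read. Both calls were lost in 12 of the 22 settings.

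TaAffx.16775.1.A1_at rose in both genotypes, more so in Y12-3, with all groups above the background level. It had 1.29, 1.31 and 1.42 in Y12-3 under stress, 0.51, 0.42 and 0.56 in Y12-3 with water, 0.90, 0.97 and 0.95 in A24-39 under stress and 0.63, 0.58 and 0.55 in A24-39 with water. The rise was 0.846 ± 0.046 in Y12-3 and 0.353 ± 0.046 in A24-39 (SE), and the interaction was 0.493 ± 0.066 (SE; limma adjusted p = 0.0301), a call lost in 12 of the 22 settings.

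Probe sets of the array carry a cluster number in their names, so that those of 1 cluster were designed from related sequences. The 52 came from 47 clusters, 29 of which have no other probe set on the array. In the other 18 clusters there were 33 probe sets that were not called, and 29 of these had an interaction of the same sign as the called member. Of the 20 with an unadjusted p under 0.05 all had that sign. The exceptions in sign were the 2 of cluster Ta.23066 described above and 1 each of the clusters Ta.280 and Ta.6282, both under the background level in all groups. Related probe sets can share target sequence, so they are no replicates. By the endings of their names 40 of the 52 end in plain at (76.9%, against 79.2% of all tested), 5 in x_at (9.62%, against 11.1%), 4 in s_at (7.69%, against 4.31%) and 3 in a_at (5.77%, against 5.43%). Names beginning with Ta made up 67.3%, against 51.5% of all tested, and those with TaAffx 32.7%, against 48.5%.

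Few genes with a known function could be followed, since 1273 tested probe sets have a symbol and most symbols carry no description. Of these 1273, 2 were called and 9.90% had an unadjusted p under 0.05, against 8.33% of all tested. Among the 19 probe sets whose symbol is not a placeholder 0 were called by limma, 1 higher and 5 lower had an unadjusted p under 0.05, and the median interaction was -0.026, against -0.017 over all tested.

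COR410, a cold-regulated dehydrin, a class of protein that accumulates in dehydrating tissue, and the single match of the stress protein list, rose in both genotypes with an interaction of -0.128 ± 0.079 (SE; limma adjusted p = 0.718). Its means were 0.030 ± 0.049 in Y12-3 under stress, -0.261 ± 0.112 in Y12-3 with water, 0.109 ± 0.067 in A24-39 under stress and -0.309 ± 0.031 in A24-39 with water (± SD of 3 arrays). Both well-watered means were under the background level, so the sizes of the rises are not exact.

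Of the 3 probe sets of the root growth list limma called 0, and all had an unadjusted p under 0.05. The brighter one of TUBA, alpha-tubulin, Ta.812.1.S1_x_at, had 3.872 ± 0.038 in Y12-3 under stress, 4.314 ± 0.290 in Y12-3 with water, 4.531 ± 0.117 in A24-39 under stress and 4.476 ± 0.201 in A24-39 with water (± SD of 3 arrays). Its interaction was -0.497 ± 0.192 (SE; limma adjusted p = 0.526). On it the third well-watered Y12-3 array read 3.98, against 4.53 and 4.43 on the others of that group. The dim one, Ta.723.1.S1_at, had 0.202 ± 0.048 (SE; limma adjusted p = 0.226), so the signals of the 2 probe sets of this symbol differed in sign. Only its well-watered A24-39 mean, -0.101, was above the background level. Its direction in transcript level is thus not settled.

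XTH, an enzyme family that cuts and rejoins xyloglucan in the cell wall, had -0.270 ± 0.023 in Y12-3 under stress, 0.049 ± 0.140 in Y12-3 with water, 0.431 ± 0.414 in A24-39 under stress and 0.108 ± 0.148 in A24-39 with water (± SD of 3 arrays). The stressed A24-39 arrays had 0.90, 0.26 and 0.13, and the stressed Y12-3 mean was under the background level. Its interaction was -0.642 ± 0.237 (SE; limma adjusted p = 0.501).

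THI1.1 had the smallest adjusted p among the symbols that are not placeholders. Its probe set Ta.23967.1.S1_x_at had means of 0.009 ± 0.019 in Y12-3 under stress, 0.723 ± 0.223 in Y12-3 with water, 0.055 ± 0.033 in A24-39 under stress and 0.123 ± 0.032 in A24-39 with water (± SD of 3 arrays). It fell in Y12-3 by 0.714 units, differed by -0.068 in A24-39, and had an interaction of -0.645 ± 0.120 (SE) that did not pass the threshold (limma adjusted p = 0.112). The second probe set, Ta.23967.1.S1_s_at, had -0.559 ± 0.169 (SE; limma adjusted p = 0.381). Both had their highest mean in well-watered Y12-3, as in the third form above.

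The 2 probe sets of CAT1, a catalase that removes hydrogen peroxide, had interactions of 0.047 and -0.026, with all group means under the background level. For the shoot markers FBP, a fructose bisphosphatase, and petC, the Rieske protein of photosynthetic electron transport, the 4 probe sets ran from -0.021 to 0.074, and in 3 of the 4 no group mean was above the background level. The fourth, one of FBP, had group means of -0.216 to -0.105, close to that level. Markers specific to roots were not checked. The remaining symbols were SAHH, S-adenosylhomocysteine hydrolase, with -0.286 and -0.249 on its 2 bright probe sets, TBP1, the TATA-binding protein, with 0.062, and GAPN, a non-phosphorylating glyceraldehyde-3-phosphate dehydrogenase, with 0.184. THI1.2, TTHV and PFK lay under the background level in all groups.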

How the data were processed

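Total RNA from roots was labelled with biotin and hybridised to the Affymetrix wheat genome array, per the labels' protocols. The authors deposited a score per probe set and array, made with RMA per the submitters' processing notes (no version), and their log base, centring and scaling are not stated. The design had assumed log values, and the score was used as deposited. The groups and replicate numbers come from the sample titles.

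All contrasts came from 1 fit of 4 group means by lmFit and eBayes of limma 3.58.1 under R 4.3.3, with 8 residual degrees of freedom and Benjamini-Hochberg adjustment over 61179 probe sets and a threshold of 0.05. Errors of differences are moderated SE. The number of arrays limits the precision, and the labels call replicates biological without naming plants or pools, so p-values measure the spread between these samples. The fitting code was tested on simulated data.

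Named are up to 4 probe sets with the largest interaction in each of 9 sets (8 by group apart and direction, 1 with none), every called one with 1 symbol, and list members matched by symbol. Probe sets of the same cluster number are added. The members, lists and alternatives were chosen with earlier results of these data known. Symbols come from the platform annotation, of whose gene identifiers 0 occur in the RefSeq table for WEW_v2.1. Alternatives changed the normalization, filter, weights, variance prior, threshold, blocks and arrays.

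Pairing by replicate number was checked on each array's deviations from its group mean. Same-numbered arrays of the 2 genotypes correlated at 0.170 to 0.575 under stress and at 0.197 to 0.278 with water, all over the bound of 0.1, and those of 1 genotype across watering at -0.104 to 0.126. Different-numbered arrays of the 2 genotypes correlated at -0.509 to 0.175 under stress and at -0.189 to -0.017 with water. The lowest same-numbered value under stress was thus not above all of these. Arrays that differ in both genotype and watering reached 0.332. By the bound, the numbers were treated as pairs within each watering regime only. The results, standard errors and adjusted p-values given are nevertheless those of the fit without the block, and the fit with it is an alternative whose values stand beside the results it changes. The pairing comes from the data, as the labels name no shared batch.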

Additional observations from a re-analysis of the deposited data

Results flagged for a closer look

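By the interaction test itself, the stress response of the signal differed between the 2 genotypes in 52 probe sets. In 29 of these a single group mean was above the background level, so the response of the transcript in the other genotype could not be read. Those named above with well-watered A24-39 apart had interactions of 1.953 (Ta.23066.2.S1_s_at), 1.636 (Ta.18925.1.A1_at), 1.498 (Ta.18507.1.S1_at), 1.384 (Ta.5507.1.S1_at) and 0.678 (Ta.20771.1.S1_at, LOC543146). With stressed Y12-3 high they were 1.204 (TaAffx.66666.1.A1_at), 1.173 (Ta.8837.1.S1_at), 1.141 (Ta.5854.1.A1_at), 0.763 (TaAffx.40933.1.S1_at) and 0.523 (Ta.280.2.S1_x_at, LOC100037642), and with stressed Y12-3 low -0.759 (Ta.10.1.S1_a_at). With well-watered Y12-3 apart they were -2.922 (Ta.5252.1.S1_at), -1.822 (Ta.19210.1.A1_a_at), -1.251 (Ta.5252.2.S1_x_at) and -1.066 (Ta.4969.3.S1_x_at). With stressed A24-39 apart they were -3.626 (Ta.6081.1.S1_a_at), -0.650 (Ta.22298.1.S1_at) and -0.358 (Ta.13784.1.S1_at). Without a group apart they were -0.944 (Ta.27043.1.S1_at), -0.877 (Ta.3628.1.S1_at), -0.608 (Ta.4333.1.S1_s_at) and 0.493 (TaAffx.16775.1.A1_at).

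Among the 25 control probe sets for wheat genes, which the comparison leaves out, 22 had a group mean above the highest non-target control. Fitted together with all tested probe sets, 0 of the 25 had an interaction past the threshold in limma and 2 had an unadjusted p under 0.05. One reads the middle of elongation factor 1-alpha, with an interaction of 0.260 ± 0.079 (SE), and the other the 3′ end of sucrose synthase, with -0.373 ± 0.166 (SE). This fit was chosen after seeing the data.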

How the results depend on the processing

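For the interaction the count of 52 became 154 with the replicate block set per watering regime, 117 after spike-in rescaling, 865 with array weights, 140 with a trended robust prior, 124 at an adjusted p under 0.1 and 1765 without the third well-watered array of either genotype. It was 43 with the replicate block over all groups, 52 after quantile normalization (28 higher, 24 lower), 46 after median centring and 64 without dim probe sets. Leaving out 1 array gave 23 to 625. For the 22 named probe sets no alternative reversed a sign, 371 of 484 refits kept the call and 9 probe sets kept it in all 22 settings, while 20 of the 52 were called in all 12 fits without 1 array. The 22 kept calls at an adjusted p under 0.1 come from the same fit with a looser cut, so they could not be lost. The block per watering regime ended 16 of the 52 calls, 3 of them of named probe sets. Spike-in rescaling gave a median Y12-3 response over all probe sets of 0.101, against -0.005, and a median interaction of 0.082, against -0.017.

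The share with a group apart, 92.3%, was 63.6% with the block per watering regime, 74.9% with array weights, 68.8% without the third well-watered array of either genotype, 62.5% at an unadjusted p under 0.05 and 72.3% to 100% without 1 array. Under the definition by the largest difference from the mean of the other 3 it is 100% by construction, with 19, 15, 15 and 3 for well-watered A24-39, stressed Y12-3, well-watered Y12-3 and stressed A24-39.

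Stress calls in Y12-3 numbered 11716, against 6921 with that block, 17674 with array weights and 7731 to 12957 without 1 array. In A24-39 they numbered 6541, against 10843 with array weights and 3866 to 7588. Genotype calls numbered 3230 in well-watered roots, against 1893 after spike-in rescaling and 1915 to 3585. In stressed roots they numbered 5180, against 12280 with array weights, 8183 at an adjusted p under 0.1, 9962 without the third well-watered array of either genotype and 2984 to 7387. The cause of these shifts was not tested.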

Other observations

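The 4 largest interactions that were not called, 2 in each direction, were chosen after their values were seen. TaAffx.29185.1.S1_at had -0.66, -0.69 and -0.65 in Y12-3 under stress, 2.31, 2.48 and 3.14 in Y12-3 with water, -0.63, -0.62 and -0.63 in A24-39 under stress and -0.05, 0.71 and -0.58 in A24-39 with water. Its interaction was -2.657 ± 0.399 (SE; limma adjusted p = 0.0535), and -2.103 without the third well-watered array of either genotype (limma adjusted p = 0.00845). Ta.18507.1.S1_s_at (2.132, limma adjusted p = 0.101) also passed without them, at 1.701 (limma adjusted p = 0.00044).

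Ta.2632.3.S1_x_at was above the background level in all groups. It had 1.42, 0.49 and 0.97 on the stressed Y12-3 arrays, 1.48, 1.18 and 1.68 on the well-watered Y12-3 arrays, 2.30, 1.51 and 2.5 on the stressed A24-39 arrays and 0.05, 0.62 and 0.63 on the well-watered A24-39 arrays, an interaction of -2.155 ± 0.413 (SE; limma adjusted p = 0.124). Ta.13989.1.S1_at spread widely within groups, with 0.45, 2.52 and 2.16 in Y12-3 under stress, 2.46, 4.06 and 0.14 in Y12-3 with water, 0.57, 0.03 and 1.91 in A24-39 under stress and 3.36, 4.83 and 3.02 in A24-39 with water. Its interaction of 2.391 ± 1.341 (SE) was far from the threshold (limma adjusted p = 0.681). Of the 102 interactions of at least 1 unit that were not called, 27 were called without the third well-watered array of either genotype.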
